A study of Mus musculus with 12 samples.

Results

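The mevalonate arm of cholesterol synthesis is covered here by 6 enzymes, Hmgcs1, Mvk, Pmvk, Mvd, Fdps and Fdft1, which carry carbon from HMG-CoA to squalene. Each was read by 1 probe set whose platform annotation gave that symbol and no other, so all 6 of 6 were measured, among 22180 genes on the array. The arrays (Affymetrix, 1 colour) measured liver RNA of male mice, 3 biological replicates in each of 4 groups. These were Lats2-CKO mice on a high-cholesterol Paigen diet (HCD) with 1.25% cholesterol, wild-type mice on HCD, Lats2-CKO mice on a normal diet (ND) of chow without cholesterol, and wild-type mice on ND. All mice were fed for 9 weeks. Their age is given as 8 weeks, without saying whether this was at the start of the diet, as read here, or at collection. Lats2 encodes a Hippo pathway kinase. Elsewhere in the labels the mutants are called Lats2-KO, and neither the deleted exons nor the targeted cells are named. Nor do they say whether replicates shared a litter or cage, so p-values only weigh differences of group means against the spread between arrays within these 4 groups.

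The pathway starts when HMG-CoA synthase joins acetyl-CoA to acetoacetyl-CoA. HMG-CoA is then reduced to mevalonate, which is phosphorylated, decarboxylated and assembled into farnesyl diphosphate and squalene. In liver the genes are driven by the transcription factor SREBP2, which is held back in the endoplasmic reticulum when membrane cholesterol is high. The reductase step and the main isomerase are not analysed here.

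Values are log2 expression after RMA as the authors deposited them, so a difference of 1 is a 2-fold change. Changes and their standard errors come from 1 limma fit over all genes and all 12 arrays, and a gene passed at an adjusted p (Benjamini-Hochberg over 22180 genes) below 0.05. Changes are high-cholesterol minus normal diet, or Lats2-CKO minus wild type. Having 3 arrays a group limits the precision.

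Facts of the whole series bear on the results as follows. Lats2 read 4.37 to 4.99 on the 6 Lats2-CKO arrays and 5.12 to 5.97 on the 6 wild-type arrays, without overlap (limma adjusted p = 0.486 over both diets). The position of its probe set against the deleted part is not given in the sources used here. The 6 hepatocyte markers averaged 11.95 to 12.16 on all arrays. Over all genes, array 3 of the ND wild-type group correlated at 0.993 with Lats2-CKO high-cholesterol array 3 and at 0.982 with the more similar of its group's other arrays. A nearest array outside the group was found for 7 of the 12 arrays. For example, wild-type high-cholesterol array 3 had r of 0.995 outside and 0.986 inside its group. These neighbours were on the same diet, except for those of ND wild-type array 3 and wild-type high-cholesterol array 1. The nearest array of the latter was ND wild-type array 3 itself (r = 0.986, against 0.985 inside its group). Diet results are given with all 12 arrays and, where a call or a count of calls changed without ND wild-type array 3, also without it. The arrays also fell into sets of 6 by their median value (3.481 to 3.495 and 3.423 to 3.434), of which the set with high medians held 4 ND arrays and the other 2. No label names these sets, but they went with the replicate number. Every array 1 was in the set with high medians, and every array 3 was in the other. Arrays 2 split by diet, with those on ND in the set with high medians and those on HCD in the other. Set, replicate number and diet are thus partly confounded, and results within the sets are given below.

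Promoter entries in RefSeq's table for mouse build GRCm38.p6 were matched for 4 of the 6 enzymes: Hmgcs1, Mvk, Pmvk and Mvd. Sequence upstream of the transcription start is shown for Hmgcs1, Mvk and Mvd, because genes under sterol control are known to carry sterol regulatory elements next to CCAAT and GC boxes there. The stretches are chr13:119690101-119690350 on the plus strand for Hmgcs1, chr5:114444074-114444263 on the plus strand for Mvk and chr8:122443423-122443655 on the minus strand for Mvd, all outside genes of the RefSeq annotation. Capitals mark matches to the letters TCACNCCAC, CCAAT or GGGCGG on either strand, which did not overlap each other here.
Hmgcs1: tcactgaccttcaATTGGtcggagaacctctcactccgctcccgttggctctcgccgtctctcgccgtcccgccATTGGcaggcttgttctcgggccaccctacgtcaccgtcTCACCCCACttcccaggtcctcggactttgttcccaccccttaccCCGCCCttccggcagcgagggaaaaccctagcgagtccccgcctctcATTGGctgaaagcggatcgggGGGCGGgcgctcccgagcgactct
Mvk: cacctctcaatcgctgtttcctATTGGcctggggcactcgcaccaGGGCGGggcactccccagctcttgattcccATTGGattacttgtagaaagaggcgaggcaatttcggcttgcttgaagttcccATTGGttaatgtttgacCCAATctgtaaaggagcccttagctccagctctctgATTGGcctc
Mvd: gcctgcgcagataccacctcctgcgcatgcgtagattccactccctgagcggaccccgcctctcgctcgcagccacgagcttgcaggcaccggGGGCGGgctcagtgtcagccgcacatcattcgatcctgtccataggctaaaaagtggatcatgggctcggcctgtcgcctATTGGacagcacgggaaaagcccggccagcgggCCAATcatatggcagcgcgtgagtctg

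In the full 250 bases before the start, Hmgcs1 held the sterol element letters once, from 137 to 129 bases before the start, as TCACCCCAC. These letters were present in 1.05% of 32851 promoter windows of the same length. The same search found no sterol element letters for Mvk, Mvd or either of the 2 starts of Pmvk, which says only that these letters are not in those windows. CCAAT, found in 33.8% of all windows, was present 3 times for Hmgcs1, 5 times for Mvk and 2 times for Mvd. GGGCGG, found in 32.7% of windows, was present 2 times for Hmgcs1, 2 times for Mvk (1 of them outside the stretch shown) and once for Mvd. The first Pmvk start had 1 CCAAT and no GGGCGG, and the second had neither. A match is a description of the sequence and not a site at which binding was measured.

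The high-cholesterol diet went with lower fitted values of all 6 enzymes in each genotype. The median change of the 6 was -0.62 in Lats2-CKO mice and -0.55 in wild-type mice, against medians of -0.02 over all genes in both. A fitted change that was lower in both genotypes was found for 35.7% of all genes. By size, Fdps stood at one end, with a change of -2.68 in Lats2-CKO mice and -1.94 in wild-type mice. Pmvk stood at the other, with -0.20 and -0.16. Mean levels over all arrays were 3.79 for Mvk, 4.03 for Pmvk and 3.9 for Mvd, where the median of gene means was 3.45. Those of Hmgcs1, Fdps and Fdft1 were 8.35, 6.62 and 8.93. Whether the lower levels of Mvk, Pmvk and Mvd limited the size of their changes was not tested. Over both genotypes 1 of the 6, Fdps, passed the threshold, where 1.24% of all genes did, and 0.87% passed on the lower side. Within Lats2-CKO mice 0 of the 6 passed (0.271% of all genes) and within wild-type mice 0 of the 6 (0% of all genes). At an unadjusted p below 0.05 in limma, 4 of the 6 were lower in Lats2-CKO mice (13.4% of all genes, either direction) and 2 of the 6 in wild-type mice (10.6%). Over both genotypes 5 of the 6 were lower at that level, against 18% of all genes in either direction.

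**Figure D1:**
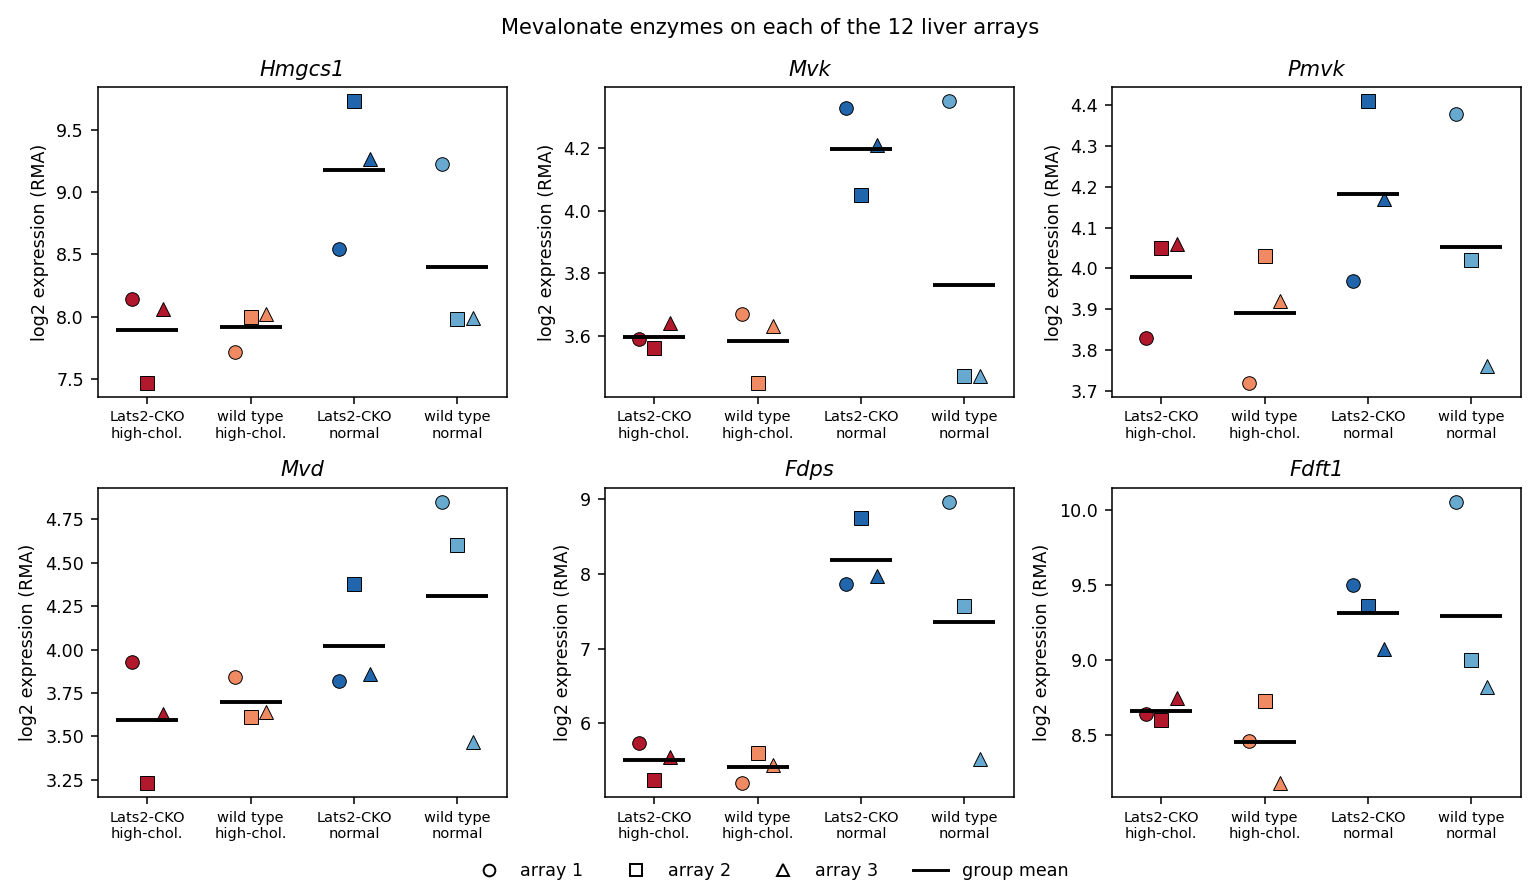
Log2 expression (RMA, y axis) of each enzyme on the 12 arrays, by group on the x axis. Symbols are single arrays and bars are means of 3; each panel has its own scale that does not start at 0. Fdps lies between 5.20 and 5.74 on the 6 high-cholesterol arrays and above 7.5 on all normal-diet arrays but wild-type array 3, at 5.53.

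Hmgcs1, the cytosolic HMG-CoA synthase, opens the arm. It read 8.14, 7.47 and 8.06 in HCD Lats2-CKO livers and 7.72, 8.00 and 8.02 in HCD wild-type livers. In ND livers it read 8.54, 9.73 and 9.27 in Lats2-CKO mice and 9.23, 7.98 and 7.99 in wild-type mice. The Lats2-CKO groups did not overlap between diets, which was so on the lower side for 10.5% of all genes. In wild-type mice only array 1 of the normal-diet group lay above the high-cholesterol arrays, and arrays 2 and 3 lay among them. The change was -1.29 ± 0.36 in Lats2-CKO mice (SE, 3 arrays against 3, limma adjusted p = 0.146) and -0.48 ± 0.36 in wild-type mice (limma adjusted p = 0.68).

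Mvk, mevalonate kinase, adds the first phosphate. Its level was 3.59, 3.56 and 3.64 in HCD Lats2-CKO livers and 3.67, 3.45 and 3.63 in HCD wild-type livers, against 4.33, 4.05 and 4.21 in ND Lats2-CKO livers and 4.35, 3.47 and 3.47 in ND wild-type livers. The pattern was that of Hmgcs1: 4 normal-diet arrays lay above all high-cholesterol arrays, and wild-type normal-diet arrays 2 and 3 lay among them. The change was -0.60 ± 0.20 in Lats2-CKO mice (limma adjusted p = 0.212) and -0.18 ± 0.20 in wild-type mice (limma adjusted p = 0.804). Mvk lies head to head with Mmab, an enzyme gene of vitamin B12 metabolism, with annotated starts so close that their upstream windows overlap. Mmab, which was chosen after its values were seen, was at -0.67 ± 0.18 over both genotypes (limma adjusted p = 0.0874), and Mvk by -0.39 ± 0.14 (limma adjusted p = 0.183).

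Pmvk, phosphomevalonate kinase, adds the second phosphate. Its readings were 3.83, 4.05 and 4.06 in HCD Lats2-CKO livers and 3.72, 4.03 and 3.92 in HCD wild-type livers. On normal diet they were 3.97, 4.41 and 4.17 in Lats2-CKO mice and 4.38, 4.02 and 3.76 in wild-type mice. The diets overlapped in both genotypes. Over both genotypes the change was -0.18 ± 0.12 (SE, 6 arrays against 6, limma adjusted p = 0.452), with a 95% confidence interval from -0.44 to 0.08.

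Mvd, mevalonate diphosphate decarboxylase, makes isopentenyl diphosphate. It read 3.93, 3.23 and 3.63 in HCD Lats2-CKO livers and 3.84, 3.61 and 3.64 in HCD wild-type livers, against 3.82, 4.38 and 3.86 in ND Lats2-CKO livers and 4.85, 4.60 and 3.47 in ND wild-type livers. Here the wild-type normal-diet arrays 1 and 2 were the highest of all 12, and array 3 lay below all 3 wild-type high-cholesterol arrays. The change was -0.43 ± 0.32 in Lats2-CKO mice and -0.61 ± 0.32 in wild-type mice (limma adjusted p = 0.613 and 0.529).

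Fdps, farnesyl diphosphate synthase, makes the last intermediate shared by sterols, dolichol, ubiquinone and prenylated proteins. Its level was 5.74, 5.25 and 5.55 in HCD Lats2-CKO livers and 5.20, 5.60 and 5.45 in HCD wild-type livers, against 7.86, 8.74 and 7.97 in ND Lats2-CKO livers and 8.96, 7.57 and 5.53 in ND wild-type livers. The 6 high-cholesterol arrays spanned 0.54, and 5 of the 6 normal-diet arrays lay above all of them. The sixth, wild-type normal-diet array 3, lay inside their range. Over both genotypes Fdps fell by 2.31 ± 0.45 (SE, 6 arrays against 6, a 4.95-fold lower level, limma adjusted p = 0.0426). This call was near the threshold: of 12 fits that each left out 1 array, it held in 1, the fit without wild-type normal-diet array 3, and adjusted p over the 12 ran from 0.000332 to 0.121. The size ran from -2.76 to -1.91 over the same fits. Within wild-type mice it ran from -2.85 without array 3 of the normal-diet group to -1.14 without array 1.

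Fdft1, squalene synthase, commits farnesyl diphosphate to sterols. It read 8.64, 8.60 and 8.75 in HCD Lats2-CKO livers and 8.46, 8.73 and 8.18 in HCD wild-type livers, against 9.50, 9.36 and 9.07 in ND Lats2-CKO livers and 10.05, 9.00 and 8.82 in ND wild-type livers. All 6 high-cholesterol values lay below all 6 normal-diet values, by a gap of 8.75 to 8.82, and the same was so for 0.974% of all genes. No other enzyme of the 6 had this separation. Within genotypes the diets also did not overlap, which was so on the lower side for 8.81% of all genes in wild-type mice. The change over both genotypes was -0.74 ± 0.19 (limma adjusted p = 0.0834).

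**Figure D2:**
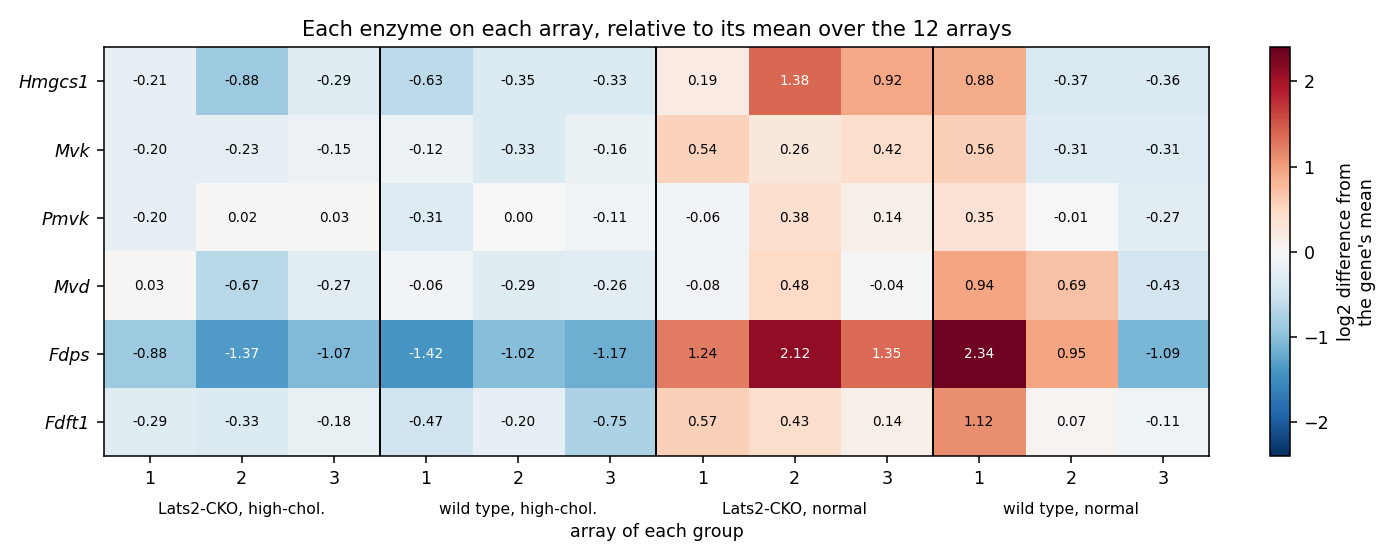
Log2 difference of each enzyme (rows) on each array (columns, by group) from that enzyme's mean over the 12 arrays, in colour and as printed values. Wild-type normal-diet array 1 has the highest value of Mvk, Mvd, Fdps and Fdft1, and array 3 of that group is below the mean for all 6.

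Averaged over the 6 enzymes, each centred on its own mean, the arrays ran from -0.58 to -0.29 on high-cholesterol diet, with -0.29, -0.58 and -0.32 in Lats2-CKO mice and -0.50, -0.36 and -0.46 in wild-type mice. On normal diet they stood at 0.40, 0.84 and 0.49 in Lats2-CKO mice and at 1.03, 0.17 and -0.43 in wild-type mice. Wild-type normal-diet array 3 was thus 9th of 12 from the top, among the high-cholesterol arrays, and array 2 lay between the diets. The enzymes split on array 2. Mvd, Fdps and Fdft1 read above all high-cholesterol arrays there, and Hmgcs1, Mvk and Pmvk lay within the high-cholesterol range. For every enzyme the SD over the 6 high-cholesterol arrays, 0.08 to 0.26, was below that over the 6 normal-diet arrays, 0.25 to 1.22. The SD was the larger one on normal diet for 57.6% of all genes.

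Without wild-type normal-diet array 3, 3 of the 6 enzymes passed over both genotypes, where 7.24% of all genes did. These were Fdps at -2.76 ± 0.25 (limma adjusted p = 0.000332), Mvd at -0.73 ± 0.15 (limma adjusted p = 0.0167) and Fdft1 at -0.86 ± 0.18 (limma adjusted p = 0.0206). Hmgcs1 was at -0.99 ± 0.27 (limma adjusted p = 0.0526). In wild-type mice Fdps and Mvd then passed, at -2.85 and -1.03 (limma adjusted p = 0.00721 and 0.0427), against 2.33% of all genes. In Lats2-CKO mice, whose own arrays are untouched by this, Fdps passed at an unmoved -2.68 with limma adjusted p = 0.00408, against 2.11% of all genes; its standard error was 0.34, against 0.64 with all 12 arrays.

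Within each of the array sets, either genotype had 1 array only on one of the diets, so these values have no test. For Fdps the Lats2-CKO difference between diets was -2.56 among arrays of high median and -2.57 among those of low median, and for Hmgcs1 it was -0.99 and -1.5. The wild-type difference of Fdps was -3.06 among arrays of high median and -0.01 among those of low median, where wild-type normal-diet array 3 alone stands for the normal diet. In that low-median set the wild-type difference was above 0 for 4 of the 6 enzymes, at 0.02 for Hmgcs1, 0.07 for Mvk, 0.22 for Pmvk and 0.16 for Mvd, and over both genotypes Pmvk was at 0.05 there. When array set entered the fit as a block, the change of Fdps over both genotypes was -2.05 and no longer passed (limma adjusted p = 0.0799). The median change of the 6 enzymes was then -0.50 over both genotypes, against -0.63 without the block.

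**Figure D3:**
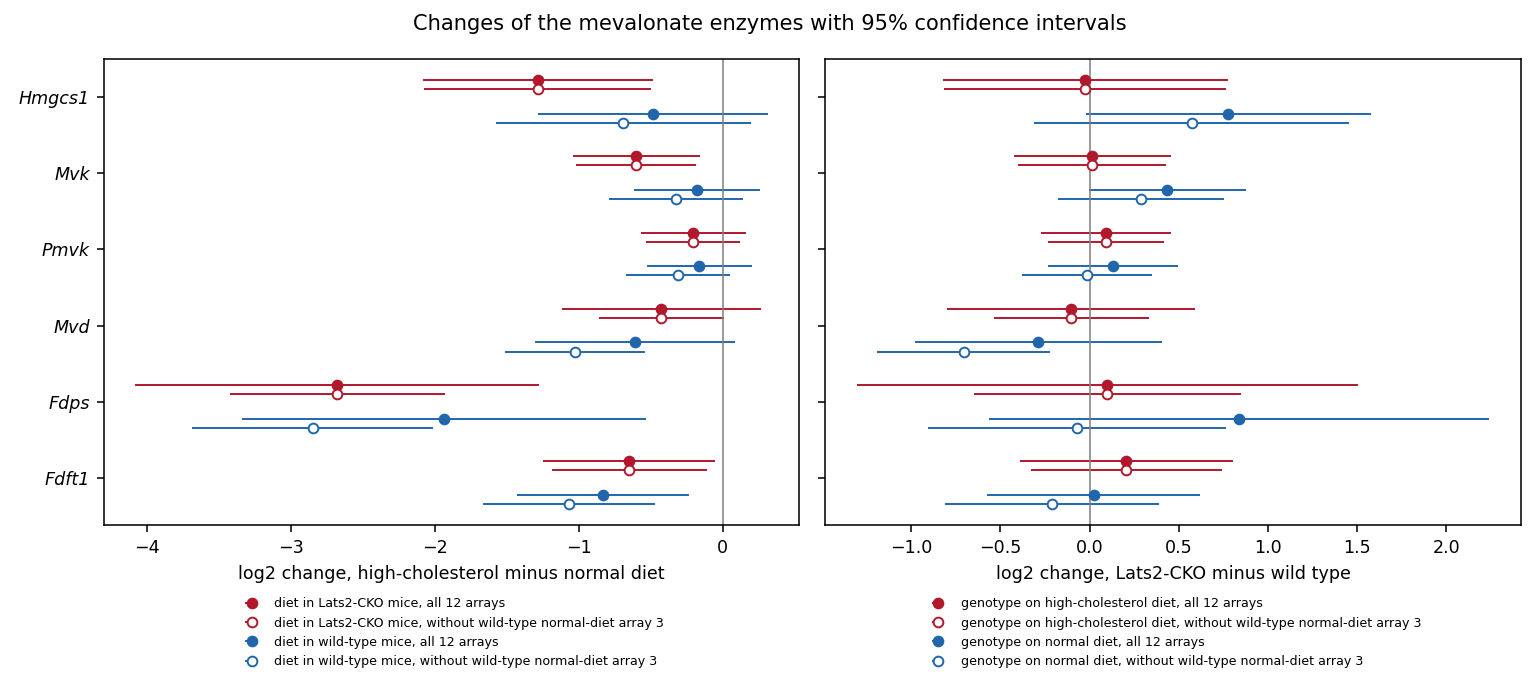
Log2 change (x axis) of each enzyme with diet, left, and with genotype, right, with 95% confidence intervals from limma; red marks Lats2-CKO mice (left) or the high-cholesterol diet (right), blue the other group. Open points leave out wild-type normal-diet array 3. Diet intervals of Fdps lie below 0 in both genotypes, and genotype intervals from all 12 arrays include 0 for all 6 enzymes.

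None of the 6 enzymes passed the threshold for genotype in limma, on either diet or over both (0.00451% of all genes over both, and 5.97% at an unadjusted p below 0.05). On the high-cholesterol diet the changes ran from -0.10 for Mvd to 0.21 for Fdft1, the groups overlapped for all 6, and 0 of 6 passed (0% of all genes, and 2.93% at an unadjusted p below 0.05 in limma). The intervals there were narrowest for Pmvk, from -0.28 to 0.46, and widest for Fdps, from -1.31 to 1.50, so the interval of Fdps spans changes of more than 2-fold either way. On normal diet 5 of the 6 had higher fitted values in Lats2-CKO mice, as did 50% of all genes, and 0 of 6 passed (0.0135% of all genes, and 8.99% at an unadjusted p below 0.05). The changes with the smallest unadjusted p were those of Mvk, 0.44 ± 0.20 (limma adjusted p = 0.562), and Hmgcs1, 0.78 ± 0.36 (limma adjusted p = 0.571). Fdps was at 0.84 ± 0.64 with all arrays and at -0.07 ± 0.38 without wild-type normal-diet array 3. Without that array Pmvk and Fdft1 also had lower fitted values in Lats2-CKO mice, Mvd was at -0.71 ± 0.22 (limma adjusted p = 0.321) with groups that did not overlap, which was so on the lower side for 14.8% of all genes, and the median over the 6 was -0.04, against 0.28 with it.

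The order of the 4 group means differed between enzymes. For Hmgcs1, Mvk, Pmvk, Fdps and Fdft1 the mean was highest in Lats2-CKO mice on normal diet, with 9.18 ± 0.60, 4.20 ± 0.14, 4.18 ± 0.22, 8.19 ± 0.48 and 9.31 ± 0.22 (SD, n = 3 each), and wild-type mice on normal diet came next. Without wild-type normal-diet array 3 the top place passed to wild-type mice on normal diet for Pmvk, Fdps and Fdft1. For Mvd, Lats2-CKO mice on normal diet were at 4.02 ± 0.31, below wild-type mice on normal diet, the highest group, at 4.31 ± 0.74. These neighbours overlapped for every enzyme. The lowest 2 places were held by the high-cholesterol groups for each of the 6, and those overlapped as well: Fdps was at 5.51 ± 0.25 in Lats2-CKO mice and 5.42 ± 0.20 in wild-type mice.

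Whether the diet acted differently in the genotypes was tested as the interaction, which is the Lats2-CKO diet change minus the wild-type one. It passed for 0 of 6 enzymes (0.00451% of all genes, and 5.62% at an unadjusted p below 0.05 in limma). Hmgcs1 had an interaction of -0.80 ± 0.51, with an interval from -1.93 to 0.33, and Fdps one of -0.74 ± 0.90, with an interval from -2.72 to 1.25. The sign for Fdps turned without wild-type normal-diet array 3, to 0.17 ± 0.50.

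The 10 measured enzymes that continue from squalene to cholesterol had a median diet change of -1.14 over both genotypes, with 6 of 10 passing on the lower side (0.87% of all genes) and 9 of 10 with lower fitted values. Without wild-type normal-diet array 3, 8 of the 10 passed, where 7.24% of all genes did. The lanosterol demethylase Cyp51 fell by 2.39 ± 0.31 (limma adjusted p = 0.0192). Squalene epoxidase Sqle, a control step of the later pathway, also passed on the lower side (limma adjusted p = 0.0334). Lss, the cyclase that closes the sterol rings, fell by 1.56 ± 0.26, and Dhcr7, a terminal reductase, fell by 1.04 ± 0.18 (limma adjusted p = 0.0322 and 0.0344). Sqle repeated the picture of Fdps by array: it read 2.79 to 2.98 on the high-cholesterol arrays and 2.55 on wild-type normal-diet array 3, against 7.0 to 8.70 on the 5 other normal-diet arrays. Its low values lay under 3.04, the 30th percentile of gene means, so no size is given for its change.

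**Figure D4:**
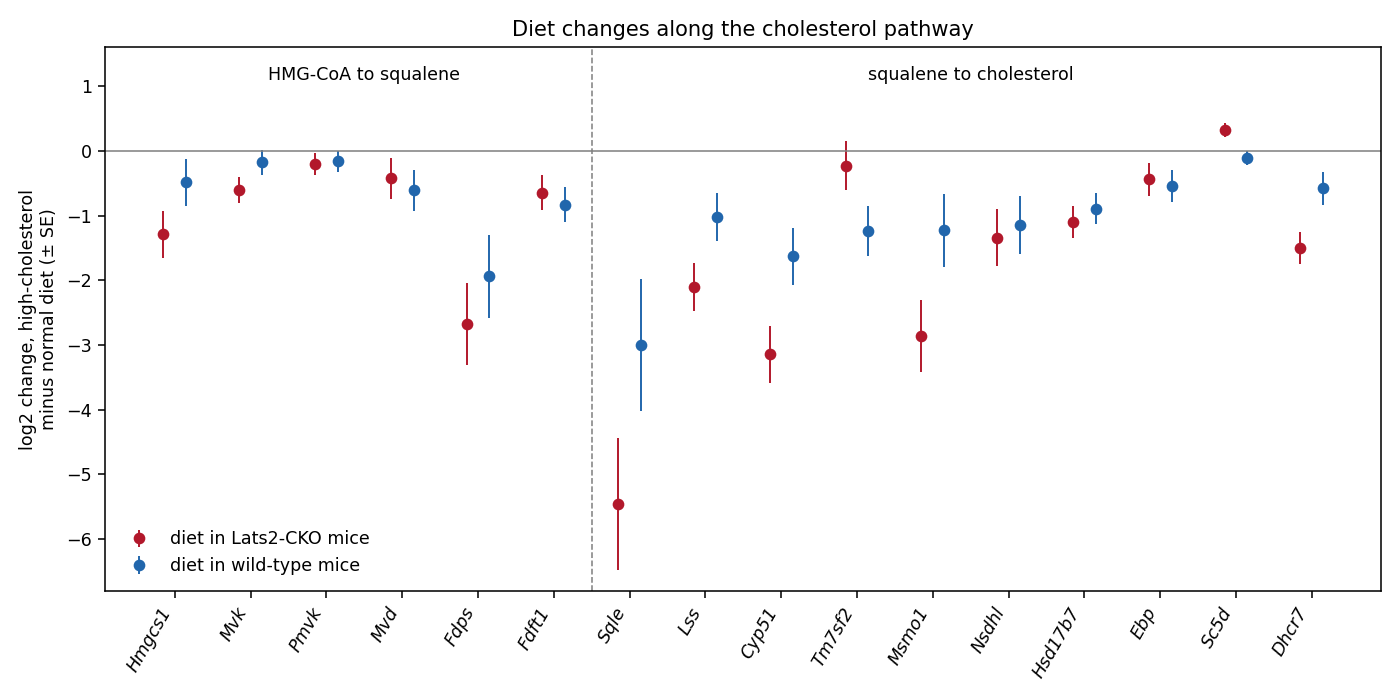
Log2 diet change (y axis, ± SE) of the 6 enzymes to squalene and of 10 enzymes from squalene on, in pathway order along the x axis, in Lats2-CKO mice (red) and wild-type mice (blue). The size plotted for Sqle rests on values among the dimmest 30% of genes. All 6 mevalonate enzymes are below 0 in both genotypes, and Fdps is the lowest of them.

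Among genes next to the arm, Bdh1 of ketone body synthesis was at -0.62 ± 0.14 (limma adjusted p = 0.0606) and passed without wild-type normal-diet array 3 (limma adjusted p = 0.0223), and Acat1, the mitochondrial thiolase, was at -0.22 ± 0.11. Idi2, a second isopentenyl isomerase, read 2.88 to 3.36 on all arrays and was at 0.19 ± 0.09 (limma adjusted p = 0.275). Of 9 measured genes of the other isoprenoid branches, 0 passed over both genotypes, and the median was -0.07. Among them Dhdds of dolichol synthesis was at -0.74 ± 0.18 (limma adjusted p = 0.0704). It was the 1 gene of the 9 that passed without wild-type normal-diet array 3, at -0.84 (limma adjusted p = 0.0204), where 7.24% of all genes did. Ggps1, which extends farnesyl diphosphate, was at 0.25 ± 0.15 (limma adjusted p = 0.396).

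Of 11 measured genes of SREBP control and sterol uptake, 0 passed over both genotypes with all arrays. Srebf2, which encodes SREBP2, was at -1.07 ± 0.25 (limma adjusted p = 0.0658) and Srebf1, which encodes the lipogenic SREBP1, at 1.31 ± 0.33 (limma adjusted p = 0.0795). Without wild-type normal-diet array 3, 3 of the 11 passed, where 7.24% of all genes did: Srebf2 (limma adjusted p = 0.00733), Srebf1 (limma adjusted p = 0.0272) and Tmem97, a sterol-responsive membrane protein gene, at -0.60 (limma adjusted p = 0.0265). In the list of sterol exporters and other LXR targets 1 of 9, the biliary sterol exporter Abcg5, rose by 1.61 ± 0.30 (limma adjusted p = 0.0403), where 1.24% of all genes passed. Without wild-type normal-diet array 3, 6 of the 9 passed on the higher side and 1 on the lower side, Cyp7a1 of bile acid synthesis, which was at -3.55 (limma adjusted p = 0.00682) and was chosen after its values were seen. Abcg5 read 10.37 to 10.70 on the high-cholesterol arrays and 10.45 on wild-type normal-diet array 3, against 8.21 to 8.85 on the 5 other normal-diet arrays. That array thus lay within or below the high-cholesterol range for Hmgcs1, Mvk, Pmvk, Mvd, Fdps and Sqle and within it for Abcg5, whereas for Fdft1 it lay above all high-cholesterol arrays. It also lay above all of them for Cyp51, at 5.80 against at most 5.32, and for Hsd17b7 of the later pathway, at 7.28 against at most 7.20. For Dhcr7 it lay above them by less than the rounding, at 5.55 against at most 5.55. For the other measured enzymes from squalene on it did not lie above all of them. For Cyp51 the 5 other normal-diet arrays read 6.76 to 8.87.

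Markers of other liver cells were read on the same arrays. The 8 macrophage and Kupffer cell markers had a median diet change of 1.07, all with higher fitted values. Of these, 2 passed, Clec4f and Cd5l, where 1.24% of all genes did. Without wild-type normal-diet array 3, 4 of 8 passed, where 7.24% of all genes did. The mean level of the 8 was 7.36 to 7.88 in HCD Lats2-CKO livers and 7.73 to 9.50 in HCD wild-type livers, against 6.53 to 6.84 in ND Lats2-CKO livers and 7.20 to 7.66 in ND wild-type livers. Of the B cell, T cell, endothelial, stellate, cholangiocyte and adipocyte markers 0 passed over both genotypes, with list medians from -0.03 to 0.35. Without wild-type normal-diet array 3, 1 stellate marker, Lrat, passed at -0.97 (limma adjusted p = 0.0433). The 6 hepatocyte markers had a median diet change of -0.06, and 0 passed. On bulk tissue, fewer cells of a type and less RNA per cell cannot be told apart, and the part of the macrophage markers in the enzyme values was not tested.

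To see how alike the enzymes were from array to array, each was set against the average of the other 5 over the 12 arrays, and Pearson's r was 0.97 for Fdps, 0.87 for Fdft1, 0.86 for Hmgcs1, 0.80 for Mvk, 0.78 for Pmvk and 0.74 for Mvd. With the group means taken off, r ran from 0.65 for Mvk to 0.94 for Fdps. The SD within groups was largest in wild-type mice on normal diet for each of the 6, for Fdps at 1.72 against 0.20 to 0.48 elsewhere. Values of r with group means taken off therefore lean on the 3 arrays of that group. The arrays share their groups and any array effect, so these are descriptions. Of 15520 other genes above the 30th percentile of mean level, the 5 most like the average of the 6 over the 12 arrays were Adtrp (r = 0.97), Msmo1 (0.96), Pick1 (0.96), Nsdhl (0.96) and Derl3 (0.95). Msmo1 and Nsdhl are sterol demethylation enzymes of the later pathway, and Derl3 is a factor of endoplasmic reticulum protein degradation. With group means taken off the 5 were Sars2 (r = 0.99), Msmo1 (0.96), Adtrp (0.94), Obox7 (0.92) and Prl8a8 (0.92).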

How the data were processed

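Liver RNA (250 ng per sample, per the labels) was measured on 12 arrays in 4 groups of 3, grouped by sample title. The deposited values are log2 expression per probe set, made by the authors by RMA in the Partek 6.6 software, as listed in the submitters' processing notes; the log2 scale was read from the range, 1.94 to 14.16. RMA settings and genome build are not given in the sources used here. Of 41345 probe sets, 23521 had 1 gene symbol, 1814 several and 16010 none. Symbols of 23328 were updated by gene identifier through RefSeq (GRCm38.p6), and the probe set with the highest mean stood for a gene, which left 22180 genes. They were tested with limma 3.58.1 in R 4.3.3 (lmFit, eBayes, 4 group means, Benjamini-Hochberg, threshold 0.05), after the code was tested on simulated data. The 6 enzymes are named throughout. Of other lists, all genes of the mevalonate and HMG-CoA lists and up to 4 others with the smallest p for diet were eligible. Likeness was ranked by Pearson's r. Members, lists and alternatives were chosen with earlier results of these data known. The alternatives were other fits, blocks, priors, probe set rules and scalings, and each array left out. Same-numbered arrays correlated at 0.002 to 0.176 in their deviations from group means, and 11 of 12 arrays correlated best with their own number. The main fit did not take the numbers as pairs, and a fit with them as a factor is given below. Whether same-numbered arrays shared a batch was not tested.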

Additional observations from a re-analysis of the deposited data

How the results depend on the processing

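The median diet change of the 6 enzymes kept its sign under all alternatives. When 1 array was left out it ran from -0.68 to -0.54 in Lats2-CKO mice, from -0.86 to -0.20 in wild-type mice and from -0.79 to -0.47 over both genotypes. The number of enzymes passing with diet over both genotypes (1 with all arrays) was 0 when every probe set was tested and also 0 when array set was a block, 1 with this block and without wild-type normal-diet array 3, and 0 to 3 when 1 array was left out. In Lats2-CKO mice (0 with all arrays) it was 1 when only the compared groups were fitted, 1 with the block and without array 3, and 0 to 2 when 1 array was left out. In wild-type mice (0 with all arrays) it was 1 with the block and without array 3, and 0 to 2 when 1 array was left out. Leaving out wild-type normal-diet array 1 turned the wild-type diet change of Mvk to 0.11 and of Pmvk to 3e-04, and moved that of Hmgcs1 to -0.07, of Mvd to -0.34, of Fdps to -1.14 and of Fdft1 to -0.45.

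The replicate block, a fit with the label's replicate number as a factor, left every call on the 6 enzymes as it was, with Fdps over both genotypes at -2.31 (limma adjusted p = 0.0471). Of 18 same-numbered pairs 7 correlated above 0.1, and 11 of 12 arrays correlated best with their own number.

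Some genotype changes turned when 1 array was left out, and others kept their sign. On normal diet they turned for Fdft1 (-0.21 to 0.40), Fdps (-0.073 to 1.64) and Pmvk (-0.0162 to 0.295). They kept their sign for Hmgcs1 (0.50 to 1.19), Mvk (0.29 to 0.73) and Mvd (-0.71 to -0.014). For the other comparisons only enzymes whose change turned are listed. Those on the high-cholesterol diet ran from -0.15 to 0.19 for Hmgcs1, -0.051 to 0.0587 for Mvk, -0.27 to 0.0801 for Mvd and -0.0163 to 0.23 for Fdps, and Fdft1 over both diets from -0.0037 to 0.30. The interaction ran from -0.20 to 0.11 for Pmvk, -0.0898 to 0.60 for Mvd, -1.54 to 0.17 for Fdps and -0.20 to 0.42 for Fdft1. Wild-type diet changes ran from -0.33 to 0.11 for Mvk and -0.31 to 3e-04 for Pmvk. With the set block and without array 3, genotype on normal diet was -0.0691 for Pmvk, -0.0328 for Fdps and -0.18 for Fdft1, and the interaction 0.16 for Pmvk and 0.13 for Fdps. The cause of these turns was not tested.

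Genes passing over both genotypes numbered 274 with all arrays, 25 with every probe set, 43 with the set block, 421 with dim genes left out, 1229 with the block and without array 3, and 6 to 1605 when 1 array was left out. In Lats2-CKO mice they numbered 60, and 9, 33, 104 and 573 in the same order, 265 in the fit of only those groups, 98 with a trended and robust prior, and 5 to 468 when 1 array was left out. In wild-type mice they numbered 0, 374 with the block and without array 3, and 0 to 516 when 1 array was left out. Genotype and interaction counts stayed between 0 and 22.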
